A study of Mus musculus with 6 samples.

Results

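The estrogen-related receptors are orphan members of the nuclear receptor family, and the genes examined here are the 3 that encode them, Esrra, Esrrb and Esrrg, with the genes of their coactivators PGC-1α and PGC-1β, Ppargc1a and Ppargc1b. These 5 genes were picked out by symbol from the 23594 genes of the deposited table, and all 5 were among the 20114 genes with enough counts to be tested. Esrrb was chosen because it differed between the genotypes in these libraries, and the other 4 because they belong with it by family. The differences of the 5 genes between genotypes are therefore given as a description, without a p-value.

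RNA was sequenced from the apical part of the furcation development region, the tissue in which a multi-rooted molar divides its roots, cut by laser-capture microdissection from mandibular first molars of C57BL/6 mice aged 4.5 days. There were 3 Control libraries, labelled wild type, and 3 Lhx6-/- libraries from littermates. Lhx6 encodes a LIM homeodomain transcription factor, and per the study Lhx6-/- mice are homozygous for the Lhx6-CreER knock-in allele, which abolishes the function of the gene in every cell that uses it. Each library combined tissue from several molars, and mice of both sexes were collected.

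Estrogen-related receptors bind DNA constitutively, without a known natural hormone, at a short response element that resembles part of the estrogen receptor's. ERRα and ERRγ, the products of Esrra and Esrrg, are known as regulators of mitochondrial energy metabolism, and PGC-1α and PGC-1β act as their protein ligands in place of a hormone. ERRβ, the product of Esrrb, is best known from the naive pluripotency network of embryonic stem cells, from trophoblast stem cells and from the inner ear.

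The libraries held between 60132323 and 76157433 estimated counts. Levels below are estimated counts per 1000000 of these totals after TMM scaling, which adjusts for library composition, written CPM. Lhx6, the targeted gene, lay at 27.8, 18.2 and 21.9 CPM in the 3 Control libraries and at 12.8, 9.82 and 10.5 CPM in the 3 Lhx6-/- libraries, a log2 fold change of -1.04 (SE 0.16; Benjamini-Hochberg adjusted p = 0.0210, quasi-likelihood F test of edgeR), in the direction of its label. Transcripts of sex-linked genes also differed: the summed level of 4 Y-linked genes was 14.6 to 58.0 CPM in Control and 55.1 to 92.1 CPM in Lhx6-/- libraries. Xist, transcribed from the inactive X chromosome, was at 792, 411 and 628 CPM in Control replicates 1, 2 and 3. In Lhx6-/- replicates 1, 2 and 3 it was at 290, 0.228 and 0.054 CPM. Lhx6-/- replicates 2 and 3 thus held next to no Xist, and the sex make-up of the libraries went partly with genotype. Of 14 lists of cell type markers, 4 had summed levels that did not overlap between the genotypes: the 6 endothelial genes (233 to 244 CPM in Control, 270 to 316 CPM in Lhx6-/-), the 7 pericyte and smooth muscle genes (453 to 506 against 605 to 723 CPM) and the 7 dental mesenchyme genes (1274 to 1337 against 1434 to 1443 CPM) were higher in Lhx6-/- libraries, and the 5 erythroid genes (1895 to 2743 against 996 to 1472 CPM) were lower. No marker in the table was at 0 in all libraries. The labelled tissue was checked on these lists as well, and its dental mesenchyme and odontoblast markers were present in every library. So were markers of other cell types. Their sums ran from 27175 to 36599 CPM for dental epithelium and from 4918 to 5790.5 CPM for osteoblasts. They ran from 3201 to 3863 CPM for osteoclasts and from 1199 to 1934 CPM for skeletal muscle.

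Esrrb carried the difference that led to its choice. Its locus on chromosome 12 (mm10) runs from 86361117 to 86521628, plus strand, with 6 annotated transcripts whose merged exons span 6047 bases. RefSeq gives the gene 2 start sites far apart, and the windows around both are shown because gene totals do not tell which start supplied the transcripts. Each window holds 250 bases before the start site in lower case and the 50 bases from it onward in capitals, on the plus strand of GRCm38.p6, the assembly that mm10 stands for.
Esrrb start 1, chr12:86360867-86361166: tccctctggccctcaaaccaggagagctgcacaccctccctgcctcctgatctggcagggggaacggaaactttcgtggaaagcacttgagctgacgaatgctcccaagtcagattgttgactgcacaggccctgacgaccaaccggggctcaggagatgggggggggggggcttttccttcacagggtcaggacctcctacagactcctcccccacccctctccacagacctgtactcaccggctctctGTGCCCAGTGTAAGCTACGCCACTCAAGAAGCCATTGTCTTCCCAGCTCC
Esrrb start 2, chr12:86421394-86421693: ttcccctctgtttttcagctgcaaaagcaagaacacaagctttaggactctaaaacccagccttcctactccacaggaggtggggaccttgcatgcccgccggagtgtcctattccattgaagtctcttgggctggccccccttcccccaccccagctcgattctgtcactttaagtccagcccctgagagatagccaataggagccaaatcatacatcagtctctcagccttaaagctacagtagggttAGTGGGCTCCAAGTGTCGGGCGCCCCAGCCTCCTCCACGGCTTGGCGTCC

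These sequences come from RefSeq, whose promoter table held 8 windows for 4 of the 5 genes. The windows were searched on both strands for the estrogen-related receptor element TCAAGGTCA, which occurs in 0.423% of 32851 RefSeq promoter windows, for its core AAGGTCA, which lies within it and occurs in 4.72%, for the homeodomain core TAATTA (5.29%) and for the TCF/LEF site CTTTGAT (3.73%). None of these letters occurred in either Esrrb window, nor in the 4 windows of Esrrg, the window of Esrra or that of Ppargc1a.

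In Control replicates 1, 2 and 3, Esrrb had 72, 42 and 37 estimated counts, or 1.16, 0.629 and 0.626 CPM. In Lhx6-/- replicates 1, 2 and 3 it had 337, 331 and 237 estimated counts, or 5.52, 4.44 and 3.18 CPM. The lowest Lhx6-/- library thus lay above the highest Control library, and the spread was wide within both genotypes. Control tissue averaged 0.804 ± 0.306 CPM and Lhx6-/- tissue 4.38 ± 1.17 CPM (SD, n = 3 each), which is a 5.45-fold difference and a fitted log2 fold change of 2.44 (SE 0.32). In these bulk libraries, more cells that transcribe Esrrb cannot be told apart from more Esrrb RNA in each cell. The difference was of similar size whichever library was left out, with a log2 fold change between 2.25 without Lhx6-/- replicate 1 and 2.80 without Control replicate 1. With the Y-linked sum added to the fit as a covariate, the log2 fold change was 2.94. The endothelial, pericyte and dental mesenchyme lists, whose sums were higher in the same libraries, had medians of 0.31, 0.30 and 0.18 on the log2 scale. Single markers could differ more. Col9a1 of the chondrocyte list, named after its values were seen, was at 0.948 ± 0.115 CPM in Control and 4.97 ± 1.80 CPM in Lhx6-/- tissue (SD, n = 3). Its log2 fold change was 2.39 (adjusted p = 0.00576, edgeR), against 0.01, -0.35 and 0.06 for Acan, Col2a1 and Sox9 of that list. The part of these cell types in the Esrrb difference was not tested.

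Esrra, the main estrogen-related receptor of this tissue, went the other way by a small amount. Its locus on chromosome 19 runs from 6910977 to 6921813, minus strand. Control replicates 1, 2 and 3 had 20.0, 24.1 and 23.4 CPM of Esrra, and Lhx6-/- replicates 1, 2 and 3 had 17.2, 18.0 and 19.2 CPM. The groups did not overlap, but the gap between the highest Lhx6-/- library and the lowest Control library was narrow. Control tissue averaged 22.5 ± 2.21 CPM and Lhx6-/- tissue 18.1 ± 1.04 CPM (SD, n = 3 each), a log2 fold change of -0.31 (SE 0.10). It was negative in all 17 alternative fits, from -0.44 to -0.26. The exons of Esrra overlap those of Trmt112, which encodes an activator of methyltransferases and is transcribed from the opposite strand. Whether reads were counted by strand is not given in the sources used here, so reads of the overlap may belong to either gene. Trmt112 itself was at 30.3 ± 2.10 CPM in Control and 27.2 ± 0.573 CPM in Lhx6-/- tissue (SD, n = 3; log2 fold change -0.16, adjusted p = 0.591, edgeR).

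Esrrg was scarce in both genotypes. The gene, on chromosome 1 from 187608791 to 188214885 (plus strand), had 43, 93 and 41 estimated counts in Control and 41, 36 and 88 in Lhx6-/- libraries. That made 0.691, 1.39 and 0.693 CPM across the Control libraries in the order of their numbers, and 0.671, 0.483 and 1.18 CPM across the Lhx6-/- libraries. The groups overlapped, and a single library in each, Control replicate 2 and Lhx6-/- replicate 3, stood above the others. The log2 fold change was -0.25 with an SE of 0.46, larger than the difference, and it became 0.17 without Control replicate 2.

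**Figure D1:**
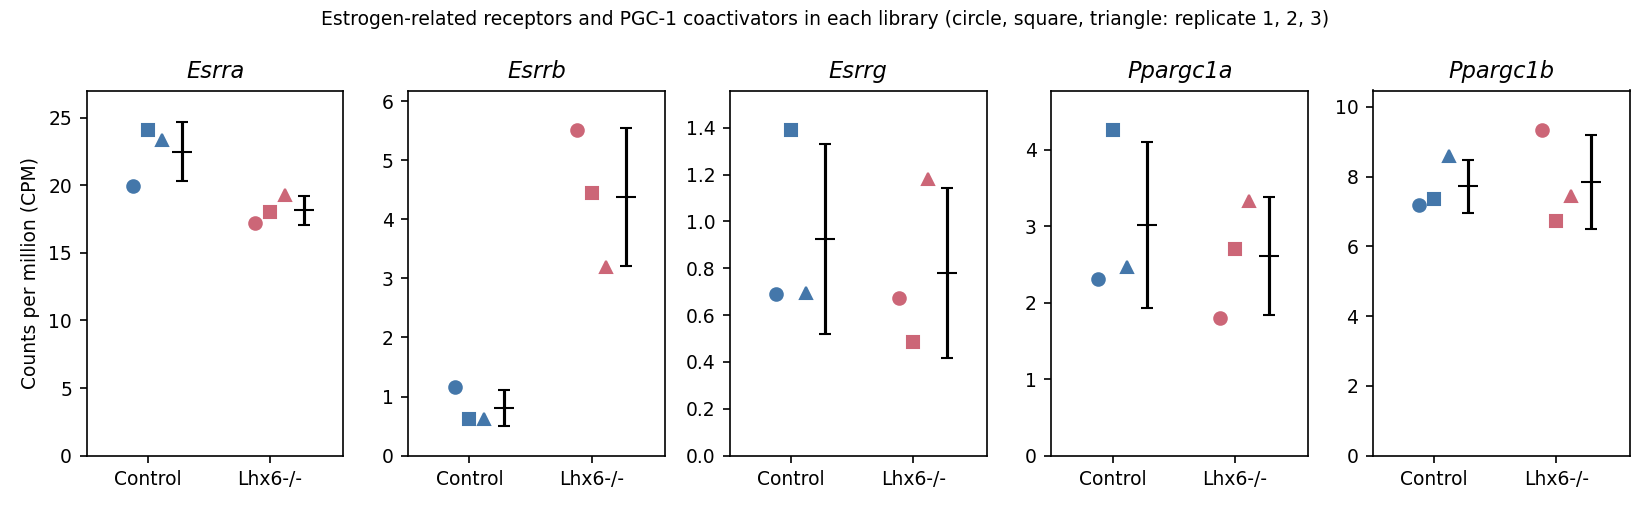
Levels in CPM (vertical axes, starting at 0, with a scale of their own for each gene) of the 5 genes in the 3 Control libraries (blue) and the 3 Lhx6-/- libraries (red). Bars give the mean and SD. Esrrb is the gene with a wide gap between the genotypes (0.626 to 1.16 against 3.18 to 5.52 CPM), the groups of Esrra are just apart (20.0 to 24.1 against 17.2 to 19.2 CPM), and those of Esrrg, Ppargc1a and Ppargc1b overlap.

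Ppargc1a encodes PGC-1α, the inducible coactivator that is prominent in muscle, brown fat and liver. The gene, on chromosome 5 from 51454250 to 51567726 (minus strand), was at 2.31, 4.26 and 2.47 CPM in Control and 1.80, 2.70 and 3.33 CPM in replicates 1, 2 and 3 of Lhx6-/-. The groups overlapped, with a log2 fold change of -0.21 (SE 0.30) that became 0.13 without Control replicate 2. The highest library of each genotype was the same as for Esrrg. Those libraries, Control replicate 2 and Lhx6-/- replicate 3, also had the highest summed level of the 10 dental epithelium markers in their group (36599 and 35678 CPM, against 27175 to 31182 CPM in the other 4 libraries) and of the 6 nerve and glia markers (523 and 508 CPM, against 180 to 413 CPM). The summed level of the 7 skeletal muscle markers was likewise highest within each genotype in these libraries, with 1510 CPM in Control replicate 2, against 1334 and 1199 CPM, and 1934 CPM in Lhx6-/- replicate 3, against 1290 and 1763 CPM. With the log2 of this epithelial sum as a covariate, the log2 fold change was 0.05 for Esrrg and 0.004 for Ppargc1a. Ambn alone supplied most of that sum, with 34848 CPM in Control replicate 2 and 34733 CPM in Lhx6-/- replicate 3. The covariate therefore mainly followed Ambn and does not stand for epithelial content as a whole. The part of these cell types in the levels of either gene was not otherwise tested.

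Ppargc1b encodes PGC-1β, a coactivator with much the same targets. The gene, on chromosome 18 from 61298136 to 61400431 (minus strand), was at 7.20, 7.36 and 8.59 CPM in Control and 9.35, 6.74 and 7.43 CPM in replicates 1, 2 and 3 of Lhx6-/-. The groups overlapped fully, with a log2 fold change of 0.02 (SE 0.16). Pprc1, which encodes the third protein of the PGC-1 family, was at 54.2 ± 1.67 CPM in Control and 52.2 ± 0.628 CPM in Lhx6-/- tissue (SD, n = 3; log2 fold change -0.06, adjusted p = 0.871, edgeR). Among the 5 chosen genes, the groups did not overlap for 2, Esrrb and Esrra. Over all genes tested, the groups did not overlap for 15.5%, and 3.28% met the rule used below for other genes, a change of 1.5-fold or more together with p under 0.05 before adjustment (1.58% higher and 1.71% lower). An adjusted p under 0.05 was reached by 0.403% of all genes tested. Nothing is read from the count of the 5, since this contrast chose Esrrb.

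Levels of different genes were compared as CPM per kb of merged exons, which takes out transcript length. In Control tissue Esrra stood highest at 5.12 ± 0.503 CPM per kb, followed by Ppargc1b at 1.93 ± 0.191, Ppargc1a at 0.457 ± 0.165, Esrrg at 0.149 ± 0.065 and Esrrb at 0.133 ± 0.051 (SD, n = 3). Esrrg and Esrrb were neighbours whose Control levels did not differ beyond their spread. In Lhx6-/- tissue the order of the others was kept, but Esrrb, at 0.725 ± 0.193 CPM per kb, had passed Esrrg at 0.125 ± 0.058 and lay above Ppargc1a at 0.396 ± 0.117 (SD, n = 3), with the lowest Esrrb library just above the highest of Ppargc1a. Esrra remained far above both relatives, at 4.13 ± 0.238 CPM per kb.

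The make-up of the receptor family followed from these levels. Esrrb supplied 3.94%, 1.78% and 1.87% of the summed CPM per kb of the 3 receptor genes in Control replicates 1, 2 and 3, and 18.5%, 15.0% and 10.3% in Lhx6-/- replicates 1, 2 and 3. The mean share was 2.53% ± 1.22 in Control and 14.6% ± 4.10 in Lhx6-/- tissue (SD, n = 3), while that of Esrra was 94.8% and 82.9%, and that of Esrrg 2.72% and 2.50%. The sum of the 3 genes was 5.41 ± 0.498 CPM per kb in Control and 4.98 ± 0.105 in Lhx6-/- tissue (SD, n = 3). The higher Esrrb level thus went with a family total that was no higher. Per length of the longest annotated transcript instead of merged exons, the mean share of Esrrb was 2.05% in Control and 12.1% in Lhx6-/- tissue. The transcripts of the 5 genes shared no window of 75 bases, the number of sequencing cycles, and the longest run in common was 22 bases, between Esrra and Esrrb.

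**Figure D2:**
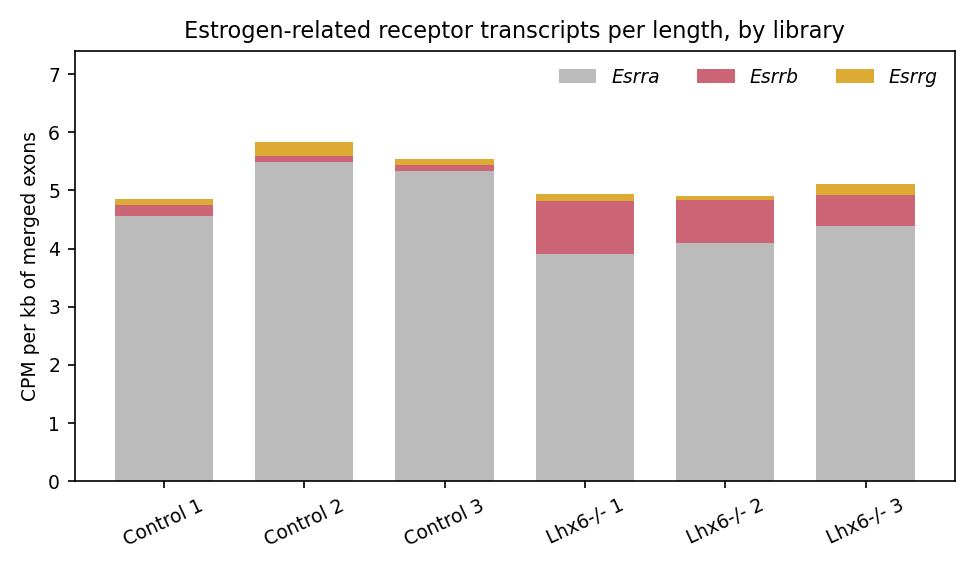
Stacked CPM per kb of merged exons (vertical axis, from 0) of Esrra, Esrrb and Esrrg in each of the 6 libraries. Esrra makes up most of every bar, and the Esrrb segment is 0.103 to 0.191 CPM per kb in Control and 0.527 to 0.912 CPM per kb in Lhx6-/- libraries.

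Among the nuclear receptors as a family, no other tested gene had a log2 fold change as large as that of Esrrb. Nothing is read from that rank, since Esrrb was chosen for its difference in these libraries. Of 49 nuclear receptor genes listed, 40 were in the table and 39 were tested. None of the 36 tested genes other than the estrogen-related receptors met the fold and p rule or had an adjusted p under 0.05 by edgeR. Of these, 2 had an unadjusted p under 0.05, and none had an adjusted p under 0.05 by DESeq2 or by either limma fit. Their median log2 fold change was 0.09, with 25 higher and 11 lower in Lhx6-/- tissue, against a median of -0.002 over all genes tested, and their values ran from -0.88 to 0.76. The groups did not overlap for 5 of them, all higher in Lhx6-/- tissue (13.9%, against 7.86% of all genes tested). Rarg, which encodes the retinoic acid receptor γ, had the highest level of the family per kb of merged exons in both genotypes, with 27.7 and 32.7 CPM per kb, although per length of the longest transcript Thra stood first and Rarg second (log2 fold change 0.24, adjusted p = 0.229, edgeR). Esr2, the estrogen receptor β gene, had the lowest in Control tissue. It had 4, 0 and 1 estimated counts in Control and 12, 11 and 6 in Lhx6-/- libraries, too few to be tested. The ratio of its mean CPM, Lhx6-/- over Control, was 5.23 without overlap, against 5.45 for Esrrb. Ranked by level per kb of merged exons among the 40, Esrrb stood at place 33 in Control and at place 27 in Lhx6-/- tissue, Esrra at 10 and 13, and Esrrg at 32 and 34.

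**Figure D3:**
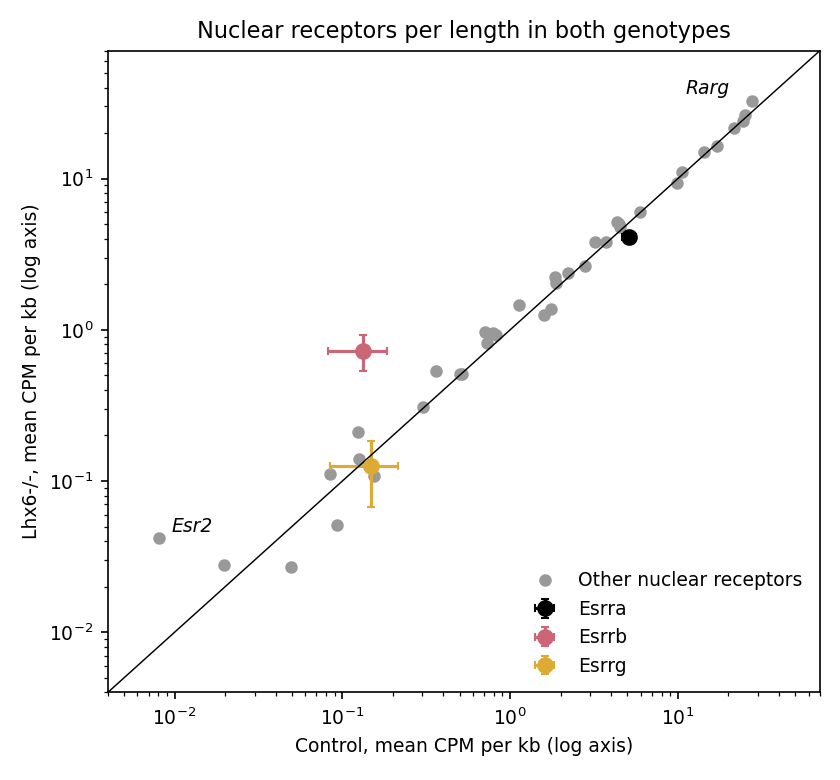
Mean CPM per kb of merged exons of 40 nuclear receptor genes in Control (horizontal axis) and Lhx6-/- tissue (vertical axis), both on log axes, with equality as a line and the SD of 3 libraries as bars on the 3 estrogen-related receptors. Esrrb lies well above the line at 0.133 and 0.725 CPM per kb, while Esrra and Esrrg lie slightly below it.

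The genes that estrogen-related receptors and PGC-1 proteins are known to serve were not higher along with Esrrb. Of 80 nuclear genes of oxidative phosphorylation (OXPHOS), the chain that makes ATP in mitochondria, 78 were lower in Lhx6-/- tissue and 2 higher, by little: the median log2 fold change was -0.19 and the range -0.46 to 0.11. None met the fold and p rule, against 3.28% of all genes tested, and none had an adjusted p under 0.05 by edgeR or by either limma fit. By unadjusted p under 0.05, 32 were lower and none higher, a count without a share over all genes tested to set beside it. DESeq2 gave 2 an adjusted p under 0.05, both lower, against 315 of the 20114 genes tested. The groups did not overlap for 18 of the 80, or 22.5%, all lower in Lhx6-/- tissue, against 7.68% of all genes tested that were lower without overlap.

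All 5 respiratory complexes showed this. Complex I, the NADH dehydrogenase, had all 36 genes lower (median log2 fold change -0.18), complex II all 4 (-0.11), complex III all 10 (-0.18), complex IV, cytochrome c oxidase, 12 of 14 (-0.22) and complex V, the ATP synthase, all 16 (-0.20). Examples, chosen after their values were seen, were Atpif1, which encodes the inhibitor of the ATP synthase, and Uqcr11, of complex III. Atpif1 was at 96.5, 106 and 98.9 CPM in Control and 82.5, 81.4 and 84.1 CPM in Lhx6-/- replicates 1, 2 and 3 (log2 fold change -0.28, SE 0.07, adjusted p = 0.135, edgeR). Uqcr11 was at 58.6, 81.9 and 59.5 CPM in Control and 44.1, 47.1 and 54.4 CPM in Lhx6-/- replicates 1, 2 and 3, a log2 fold change of -0.46. The groups were apart in both genes, and in Uqcr11 Control replicate 2 stood far above the rest. Summed over the 80 genes, the level was 5602, 6968 and 5885 CPM in Control and 5151, 5194 and 5894 CPM in Lhx6-/- replicates 1, 2 and 3, so the sums overlapped. Without Control replicate 2, 64 of the 80 genes were lower, and the median log2 fold change was -0.11.

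Short transcripts as a whole were lower in the same libraries, in length classes set after the data were seen. The median log2 fold change of protein-coding genes was -0.19 for the 709 whose longest transcript was under 1000 bases, -0.08 for the 2599 of 1000 to 2000 bases, -0.02 for the 6436 of 2000 to 4000 bases and 0.04 for the 5779 of 4000 bases or more. The OXPHOS genes are short, with a median longest transcript of 1088 bases. Within those classes their medians were -0.22 (36 genes), -0.18 (26 genes), -0.14 (14 genes) and -0.21 (4 genes). Without Control replicate 2, the medians of all protein-coding genes in these classes were -0.14, -0.05, -0.007 and 0.04. The median of all OXPHOS genes was then -0.11. Genes of the cytosolic ribosome, which estrogen-related receptors are not known for and which were added as a list after the data were seen, moved in much the same way, with 79 of 82 lower (median -0.20). Reads of ribosomal protein genes can be shared with their many pseudogenes, so single values of that list are uncertain. The part of transcript length, RNA quality or cell type in the lower OXPHOS values was not tested. Of the 5 chosen genes, 2 have a longest annotated transcript of 2000 to 4000 bases and 3 one of 4000 bases or more. Gene totals do not tell which transcripts were counted, and the part of length in their differences was not tested.

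Other lists of the pathway were closer to the background. All 13 genes of the mitochondrial genome were lower, with a median of -0.09 and groups that overlapped for every gene. In the TCA cycle 21 of 24 genes were lower (median -0.08) and in fatty acid oxidation 17 of 26 (median -0.06), with no gene past the fold and p rule in either list. Neither list held a gene with an adjusted p under 0.05 by edgeR or limma. By unadjusted p under 0.05 they held 1 lower TCA gene and 1 higher and 1 lower fatty acid oxidation gene, and DESeq2 gave 1 fatty acid oxidation gene, lower, an adjusted p under 0.05. The 20 genes of mitochondrial biogenesis split into 8 higher and 12 lower (median -0.01), the 18 other coregulators of these receptors into 10 and 8 (median 0.04), and the 19 tested of 20 reported target genes into 8 and 11 (median -0.07). None of these 57 entries met the rule. By unadjusted p under 0.05 only 3 of the reported targets were lower, and none of the 57 had an adjusted p under 0.05 by edgeR, DESeq2 or limma. The well-known targets Cycs (cytochrome c) and Sdhb (a subunit of complex II), chosen after their values were seen, had log2 fold changes of -0.29 and -0.20 (adjusted p = 0.509 and 0.504, edgeR).

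**Figure D4:**
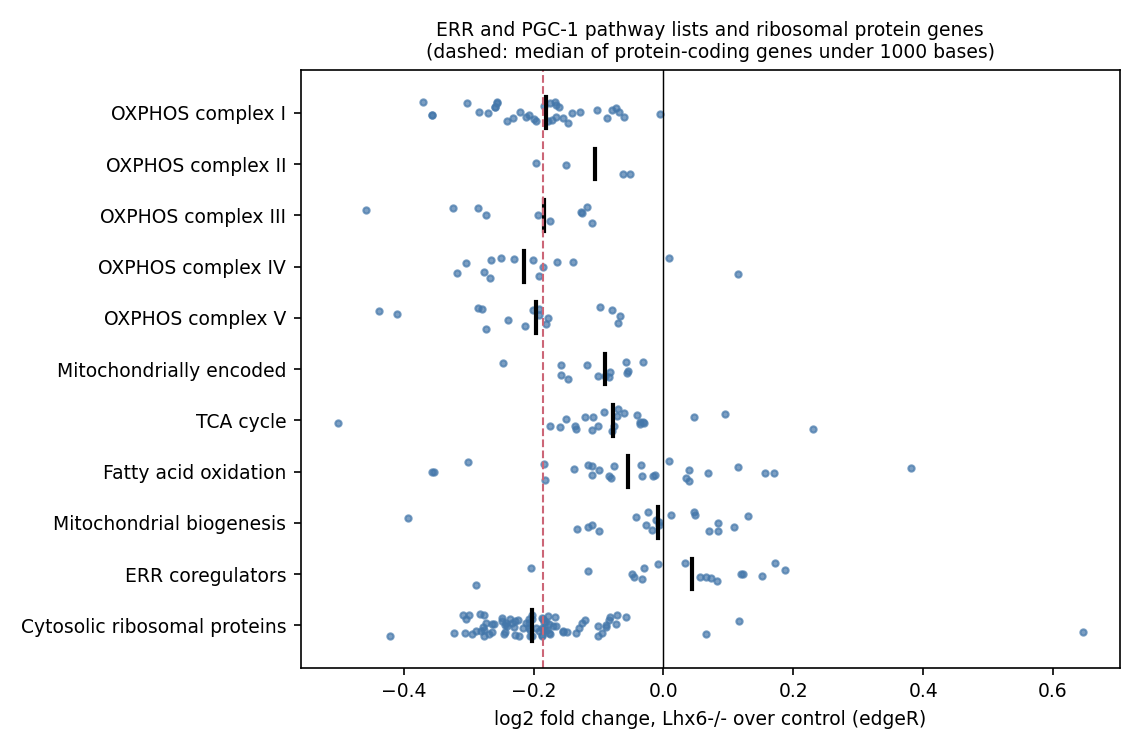
The log2 fold change of Lhx6-/- over Control tissue (horizontal axis) of each gene (points) in lists of the estrogen-related receptor and PGC-1 pathway and in the cytosolic ribosome, with the list median as a black bar, 0 as a solid line and the median of 709 short protein-coding genes (-0.19) as a dashed line. The medians of complexes I to V lie between -0.22 and -0.11, near that of the ribosomal protein genes (-0.20), and those of biogenesis (-0.01) and coregulators (0.04) lie near 0.

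Genes that accompany Esrrb in its other known settings were looked at in the same way. In the naive pluripotency network, 14 of 20 genes were tested, with 8 higher and 6 lower and a median log2 fold change of 0.09. A single gene met the fold and p rule, Tfcp2l1, a transcription factor that works beside ERRβ in embryonic stem cells. Tfcp2l1 was at 3.65, 2.32 and 2.65 CPM in Control and 4.39, 7.04 and 3.44 CPM in replicates 1, 2 and 3 of Lhx6-/-. The groups overlapped, and Lhx6-/- replicate 2 stood far above the rest (log2 fold change 0.79, SE 0.28, adjusted p = 0.347, edgeR). In the trophoblast stem cell list, 10 genes were tested and 1 met the rule, Tfap2c, which encodes the transcription factor AP-2γ. Tfap2c was lower, with 0.980, 1.44 and 0.727 CPM in Control and 0.524, 0.591 and 0.390 CPM in Lhx6-/- replicates 1, 2 and 3, without overlap (log2 fold change -1.06, SE 0.43, adjusted p = 0.431, edgeR).

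In the inner ear, Esrrb serves the ion-transporting cells of the stria vascularis. Of 8 tested genes of that setting, 1 met the rule, Atp6v1b1, a subunit of the proton pump. Atp6v1b1 was lower, with 36, 22 and 13 estimated counts in Control and 1, 8 and 0 in Lhx6-/- replicates 1, 2 and 3 (adjusted p = 0.316, edgeR). Atp1b2, a subunit of the sodium and potassium pump that was named after its values were seen, was at 33.2, 24.0 and 29.8 CPM in Control and 43.1, 38.5 and 36.4 CPM in Lhx6-/- libraries. Its groups did not overlap, but the log2 fold change of 0.44 (SE 0.12, adjusted p = 0.196, edgeR) did not reach the fold of the rule. Over these 3 lists, the genes past the rule were 3 of 32 tested, 1 higher and 2 lower, and none had an adjusted p under 0.05 by edgeR. Each of these calls was lost when a single library was left out: Tfcp2l1 without Lhx6-/- replicate 2, Tfap2c without Control replicate 2 or Lhx6-/- replicate 3, and Atp6v1b1 without Control replicate 1. With the epithelial sum, mostly Ambn, as a covariate, no gene of the pluripotency or trophoblast list met the rule. With at least 10 counts required in every library, none of the stria vascularis list did. Other fits gave more calls: the stria vascularis list had 2 with the epithelial covariate and 3 with the Y-linked covariate. The trophoblast list had 2 with the Y-linked covariate. In the main fit, by unadjusted p under 0.05, 3 of the 32 genes were higher and 3 lower. DESeq2 gave 1 gene, of the stria vascularis list and higher, an adjusted p under 0.05.

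The genes around Esrrb on chromosome 12 did not share its difference. The 5 nearest tested genes on each side were Gm37804, Tgfb3, Ift43, Gpatch2l and 4732487G21Rik before it and Vash1, Angel1, Gm10095, Irf2bpl and Cipc after it. None of the 10 met the fold and p rule or had an adjusted p under 0.05 by edgeR, and 1, Tgfb3, had an unadjusted p under 0.05. Their log2 fold changes ran from -0.78 to 0.54. The widest values belonged to Gm37804, with 8 to 18 estimated counts in a library, and to the noncoding 4732487G21Rik, the gene nearest to the first start of Esrrb, at 1.72 ± 0.350 CPM in Control and 2.51 ± 0.802 CPM in Lhx6-/- tissue (SD, n = 3; adjusted p = 0.603, edgeR). Tgfb3, which encodes a transforming growth factor, was at 174, 145 and 161 CPM in Control and 194, 175 and 197 CPM in Lhx6-/- replicates 1, 2 and 3, barely apart (log2 fold change 0.24, adjusted p = 0.346, edgeR).

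**Figure D5:**
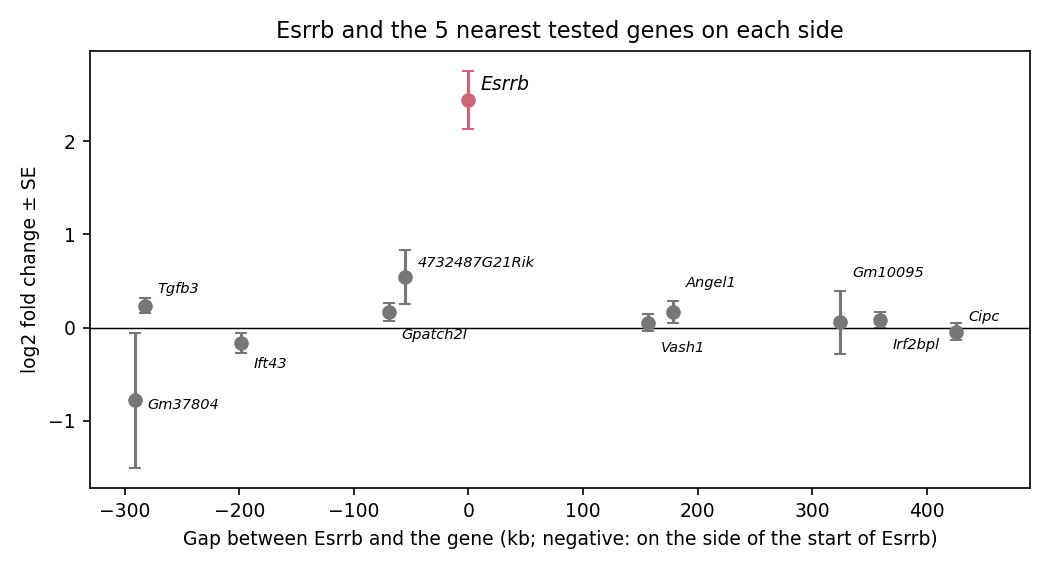
Log2 fold change with its SE (vertical axis) of Esrrb and of the 5 nearest tested genes on each side, placed by the gap between the genes in kb (horizontal axis). Esrrb stands at 2.44, and its neighbours lie between -0.78 and 0.54.

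The genes whose levels followed Esrrb most closely over the 6 libraries were Nbl1, Ntrk3, Cdip1, Dio3 and Col28a1, by Pearson's r of log2 CPM among 15120 genes with a mean of at least 1 CPM. Their r values were 0.997, 0.996, 0.995, 0.995 and 0.994. The 6 points fall into the 2 genotypes, so these values mostly show that each gene was higher in Lhx6-/- libraries, with Control replicate 1 and Lhx6-/- replicate 1 leading their groups. Nbl1, which encodes a secreted BMP antagonist, was at 104 ± 9.17 CPM in Control and 181 ± 21.4 CPM in Lhx6-/- tissue, Dio3, the deiodinase that inactivates thyroid hormone, at 24.1 ± 4.83 and 62.8 ± 10.5 CPM, and Ntrk3, a neurotrophin receptor, at 11.7 ± 3.95 and 36.5 ± 6.17 CPM (SD, n = 3). Their log2 fold changes were 0.80, 1.38 and 1.64, all smaller than the 2.44 of Esrrb.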

How the data were processed

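The authors trimmed the reads of 75 cycles, aligned them to mm10 with STAR 2.6.1d, and deposited a table of estimated counts (23594 genes, 6 libraries) that carries no scaling and no gene names. Gene names were taken from the authors' comparison table, whose order was tested on all genes with its deposited scores, Total counts and Maximum counts. Its fold changes and p-values were not used. A method for the estimated counts is not given in the sources used here.

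Estimated counts were rounded and fitted for genotype alone with edgeR 4.0.16 (R 4.3.3): TMM scaling, edgeR's expression filter, robust quasi-likelihood, two-sided test, Benjamini-Hochberg adjustment over 20114 genes. Printed CPM are counts per 1000000 of each library's total times its TMM factor (0.977 to 1.04). The SE is the log2 fold change's size divided by the square root of F. Calls took at least 1.5-fold with unadjusted p under 0.05, the study's thresholds. Alternatives used DESeq2 1.42.0, limma 3.58.1 and others, 17 fits in all. The code was tested on simulated counts. The precision was limited by 3 libraries a genotype (biological coefficient of variation 0.202) and, in scarce genes, by counting error. Nothing says whether molars of different libraries came from separate litters, so p-values measure the spread between these libraries.

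Genes named were Lhx6, the 5 chosen genes, list genes that met the rule, and the highest and lowest nuclear receptor. The 5 tested neighbours on each side, the 5 genes most like Esrrb, and Xist were named as well. Pprc1 was added as the remaining PGC-1 family gene, Trmt112 for its overlap with Esrra and Thra for its rank. Ambn was added for its share of the epithelial sum. Other genes are said to be chosen after their values were seen. The genes and lists were chosen with earlier results of these data known. Figures were drawn with matplotlib 3.10.9.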

Additional observations from a re-analysis of the deposited data

How the results depend on the processing

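Over 17 other fits, Esrrb stayed higher in Lhx6-/- tissue (log2 fold change 2.25 to 2.94) and Esrra lower (-0.44 to -0.26). Esrrg and Ppargc1a were positive in 3 fits each and Ppargc1b was negative in 4, and none of the 3 has a settled direction. With the Y-linked level as a covariate, the log2 fold change was 2.94 for Esrrb, -0.44 for Esrra, -1.01 for Esrrg, -1.0 for Ppargc1a and 0.23 for Ppargc1b, the OXPHOS median was -0.43, and 12 genes of energy metabolism met the fold and p rule against 0; the cause was not tested, and 6 libraries leave this fit 3 residual degrees of freedom. Leaving out 1 library gave 0 to 1 such genes, 1 without Lhx6-/- replicate 1 and 1 without Lhx6-/- replicate 3, and 64 to 80 OXPHOS genes lower.

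Over all genes, 660 met the fold and p rule, 1174 with the Y-linked covariate, 350 at a 2-fold threshold, and 607 to 968 with 1 library left out. An adjusted p under 0.05 was reached by 81 genes, by 315 with DESeq2, by 233 with the Y-linked covariate, and by 12 (without Control replicate 3) to 127 (without Control replicate 1) with 1 library left out. The study describes 3 pairs of samples, but the labels do not say which libraries belong together. Replicate numbers here follow the sample titles, and the library names in the deposited counts number the Lhx6-/- libraries differently. For libraries with the same title number, the deviations from their group means had correlations of 0.03, -0.03 and -0.03. With 3 libraries a genotype, these values cannot decide whether the replicate numbers mark pairs. With the replicate number as a block, 134 genes had an adjusted p under 0.05, and the log2 fold change of Esrrb was 2.47. Scarce genes such as Esrrg, with 36 to 93 counts a library, are limited by depth as well as by 3 libraries a genotype.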
